A study of Mus musculus with 15 samples.

Results

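Transcripts of the Notch pathway were followed in mouse chondrocytes under 4 chemical inhibitors: the receptors Notch1, Notch2, Notch3 and Notch4, the ligands Jag1, Jag2 and Dll1, and the target genes Hes1, Hey1 and Heyl. All probe sets that the platform annotation assigns to one of these 10 genes were taken, whatever their level, which gave 20 of the 45037 probe sets of the table, 9 for receptors, 6 for ligands and 5 for targets. Chondrocytes, the cells of cartilage, came from hind limb cartilage of CD1 mouse embryos at embryonic day 15.5 and were grown as primary monolayers, without the layered structure of the growth plate. The cultures received LY294002 (a PI3K inhibitor), UO126 (a MEK inhibitor, written U0126 elsewhere), SB202190 (written SB90 in the sample labels), Trichostatin A (TSA, an inhibitor of histone deacetylases) or the solvent DMSO, which served as control, with 3 arrays per treatment and 15 in all. SB202190 is listed with UO126 as an inhibitor of MEK/ERK signaling in the series text and is generally known as a p38 inhibitor. The time in culture with the agents is 24 h by the sample labels and, for LY294002 and DMSO, by the study's methods, and 2 h by the series text. A concentration is given for LY294002 alone in the methods and for none in the labels. The series text calls the 3 arrays of a treatment biological replicates.

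Notch receptors are single-pass membrane proteins that bind Jagged and Delta ligands on neighbouring cells. Ligand binding exposes the receptor to cleavage by ADAM proteases and then by gamma-secretase, and the released intracellular domain joins the DNA-binding protein RBPJ and a Mastermind coactivator to switch on genes of the Hes and Hey families, which encode transcriptional repressors. In growth plate cartilage, Notch signaling is known to restrain the early chondrocyte program and to take part in the passage to hypertrophy.

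All values are log2 signals as deposited, in which 1 unit is a doubling, and differences are inhibitor minus DMSO on the same scale. A probe set was tested where its mean signal reached 50 (5.64 on the log2 scale) in either group. A difference was called where its adjusted p in the limma fit over all 15 arrays lay under 0.05. Shares of all tested probe sets are given for such calls only. Counts at an unadjusted p or under another fit have no such share beside them. Of the 20 probe sets, 19 were tested in every comparison; Notch4 1449146_at had means of 5.34 to 5.63 and lay under the filter in every treatment. The 16 chondrocyte marker genes on a list of cartilage genes were all measured. Col2a1, the main collagen of cartilage, averaged 14.02 with TSA and 14.32 with DMSO, near the highest value on the arrays (14.44). Its difference with TSA was the smallest of the 16. All 16 were called lower with TSA, with a median difference of -1.20.

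TSA was the treatment with most differences among the Notch genes. It raised 7 of the 19 probe sets, belonging to the receptors Notch2 and Notch3, the ligands Jag1 and Jag2 and the target Hey1, by 1.43-fold to 2.31-fold. It lowered none by limma, with 1 lower at an unadjusted p under 0.05, and 12 did not pass. TSA changed many genes on these arrays, and 23.0% of all tested probe sets were called higher and 20.6% lower. The 7 of 19 higher lie above the first share and the 0 of 19 lower under the second, which is a description of these genes and not a test. The median difference of the 19 was 0.21, against -0.06 over all tested probe sets.

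The other inhibitors gave few calls. With LY294002, 0 of 19 were called higher and 0 lower by limma, where 6.83% of all tested probe sets were higher and 1.78% lower; at an unadjusted p under 0.05 the counts were 3 and 1. With UO126 the counts were also 0 and 0, against 1.14% and 0.792% of all tested, and 0 and 0 at an unadjusted p under 0.05. SB202190 lowered 1 probe set, Hes1, against 0.706% lower among all tested, and raised 0, against 1.23%; at an unadjusted p under 0.05 the counts were 2 lower and 0 higher. The 19 differences ran between -0.23 and 0.41 with LY294002, between -0.14 and 0.29 with UO126 and between -0.50 and 0.08 with SB202190. These counts come from a fit that does not use the replicate numbers. With the replicate number as a block, LY294002 raised 1 probe set and lowered 0. In that fit UO126 raised 0 and lowered 0, and SB202190 raised 0 and lowered 1.

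**Figure D1:**
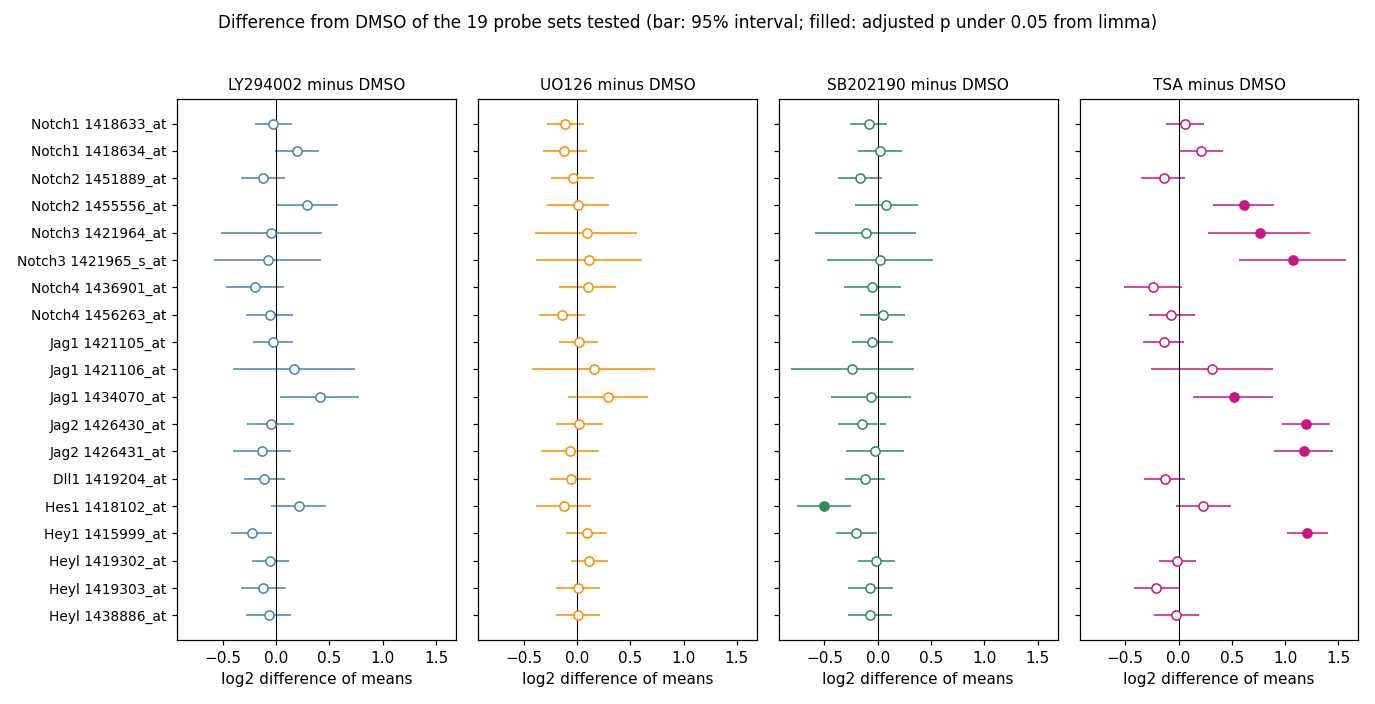
Difference from DMSO (log2, inhibitor minus DMSO) of each tested probe set, grouped by role, with a 95% interval (the standard error of limma times t with 10 degrees of freedom), for LY294002, UO126, SB202190 and TSA. Filled points mark an adjusted p under 0.05, which are 7 higher probe sets with TSA and 1 lower, Hes1, with SB202190.

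Among the receptors, Notch3, which is best known from vascular smooth muscle, rose with TSA on both of its probe sets. Notch3 1421965_s_at gave 9.54, 9.27 and 9.19 on the TSA arrays, against 8.15, 7.94 and 8.70 on the DMSO arrays. All TSA arrays lay above all DMSO arrays, and the difference was 1.07 ± 0.22 (SE, n = 3 arrays per group), or 2.10-fold, with an adjusted p of 0.000883. The weaker probe set 1421964_at gave 6.79, 6.57 and 7.01 with TSA and 5.96, 5.66 and 6.46 with DMSO, again without overlap. Its difference was 0.76 ± 0.21, or 1.69-fold, with an adjusted p of 0.00798. This p became 0.0527 when DMSO replicate 2 was left out.

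On both Notch3 probe sets the array of replicate 2 was the lowest of its treatment with LY294002, UO126, SB202190 and DMSO. For 1421965_s_at the values of replicates 1 to 3 were 8.23, 7.74 and 8.58 with LY294002, 8.46, 8.15 and 8.51 with UO126, and 8.28, 7.88 and 8.68 with SB202190. The spread within these treatments exceeded their differences from DMSO, and no call was made.

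Notch2, a receptor expressed in many mesenchymal tissues, was read by a pair of probe sets that differed. Notch2 1455556_at gave 10.52, 10.39 and 10.02 with TSA, against 9.60, 9.98 and 9.53 with DMSO. Every TSA array was above every DMSO array, the nearest by a narrow margin, and the difference was 0.61 ± 0.13 (SE, n = 3 per group), or 1.52-fold, with an adjusted p of 0.00109. Notch2 1451889_at gave 7.28, 7.28 and 7.06 with TSA and 7.19, 7.51 and 7.34 with DMSO, a difference of -0.14 with an adjusted p of 0.224. The TSA and DMSO arrays overlapped there, so the call for Notch2 rests on 1 of its 2 probe sets. On 1455556_at the LY294002 arrays gave 10.15, 9.96 and 9.88, a difference of 0.29 with a 95% interval of 0.00 to 0.58 and an adjusted p of 0.181.

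Notch1, the receptor studied most in development, had no call against DMSO on either probe set. Notch1 1418634_at gave 8.81, 8.74 and 8.99 with TSA, against 8.69, 8.51 and 8.70 with DMSO, and 8.87, 8.81 and 8.80 with LY294002. All TSA and LY294002 arrays lay above all DMSO arrays, but the differences of 0.21 (adjusted p = 0.0709) and 0.20 (adjusted p = 0.203) did not pass. Notch1 1418633_at differed by 0.06 with TSA and by -0.03 with LY294002, with intervals of -0.12 to 0.24 and -0.20 to 0.15.

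Notch4 is known mainly from endothelial cells. Notch4 1436901_at averaged 6.76 ± 0.04 with TSA and 7.01 ± 0.24 with DMSO (SD, n = 3 each), a difference of -0.24 with an adjusted p of 0.116. Notch4 1456263_at stayed between 5.77 and 6.17 on all 15 arrays.

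**Figure D2:**
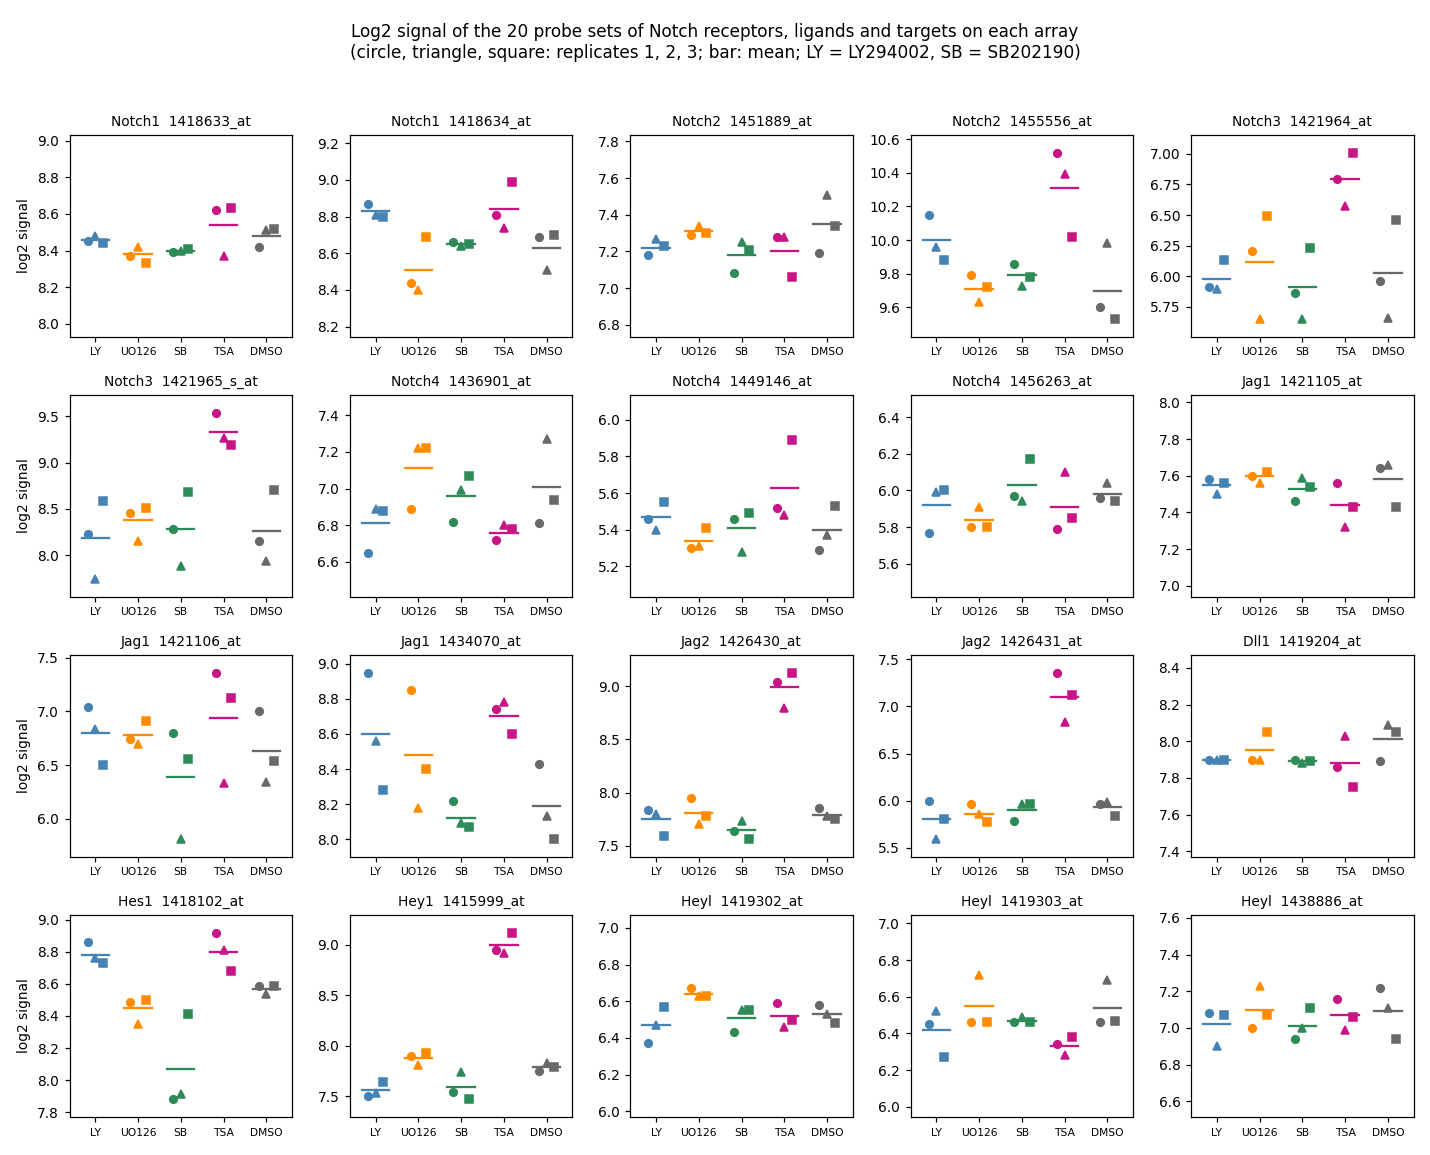
Log2 signal of all 20 probe sets on each of the 15 arrays, 1 panel per probe set, by treatment in the order LY294002, UO126, SB202190, TSA and DMSO; circle, triangle and square are replicates 1, 2 and 3, bars are means, and the vertical range differs between panels. The TSA arrays of Jag2 1426430_at (8.80 to 9.13) and Hey1 (8.92 to 9.12) stand above every array of the other treatments.

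Jag2, a Jagged ligand required for limb and palate development, rose with TSA on both probe sets by similar amounts. Jag2 1426430_at gave 9.04, 8.80 and 9.13 with TSA, against 7.85, 7.78 and 7.75 with DMSO. The gap between the groups was far wider than the spread within them, and the difference was 1.20 ± 0.10 (SE, n = 3 per group), or 2.29-fold, with an adjusted p of 4.31e-08. Jag2 1426431_at gave 7.36, 6.83 and 7.12 with TSA and 5.96, 5.99 and 5.84 with DMSO, a difference of 1.18 ± 0.12, or 2.26-fold, with an adjusted p of 6.82e-07. No other inhibitor gave a call for Jag2. On 1426430_at the arrays of LY294002 (7.84, 7.80 and 7.59) and UO126 (7.95, 7.70 and 7.78) overlapped those of DMSO, and those of SB202190 (7.64, 7.73 and 7.56) lay just below them.

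Jag1, a ligand with known roles in skeletal and vascular development, was read by 3 probe sets, and 1 of them passed with TSA. Jag1 1434070_at gave 8.74, 8.78 and 8.60 with TSA, against 8.43, 8.13 and 8.00 with DMSO. The groups did not overlap, and the difference was 0.52 ± 0.17 (SE, n = 3 per group), or 1.43-fold, with an adjusted p of 0.0191. This call was lost without DMSO replicate 2 (0.0575), DMSO replicate 3 (0.0843), TSA replicate 1 (0.0535) or TSA replicate 2 (0.0575), where the values are adjusted p. Jag1 1421105_at and 1421106_at differed by -0.14 (adjusted p = 0.199) and by 0.31 (adjusted p = 0.346), and on the second the arrays of each group spread over much of the difference.

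Of the 3 Jag1 probe sets, 1 was also higher in LY294002 cultures when arrays were compared by replicate number. Jag1 1434070_at gave 8.95, 8.56 and 8.28 with LY294002, and the same-numbered DMSO arrays gave 8.43, 8.13 and 8.00. Each LY294002 array was above its own DMSO array, by 0.51, 0.43 and 0.28, while replicate 1 was the highest in both groups. The difference of 0.41 ± 0.17 did not pass in the fit without pairing (adjusted p = 0.146) and passed with the replicate number as a block (adjusted p = 0.0166). It rested on single arrays, with 0.24 (adjusted p = 0.512) without LY294002 replicate 1 and 0.57 (adjusted p = 0.0494) without LY294002 replicate 3, both unblocked. The same-numbered differences had mixed signs on Jag1 1421105_at (-0.06, -0.16 and 0.13) and 1421106_at (0.04, 0.50 and -0.04), with block adjusted p of 0.819 and 0.512. UO126 gave 8.85, 8.18 and 8.40, a difference of 0.29 that did not pass (adjusted p = 0.665).

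Dll1, a Delta ligand, had no call. Dll1 1419204_at gave 7.86, 8.03 and 7.75 with TSA, against 7.89, 8.09 and 8.05 with DMSO, and the differences of the 4 inhibitors ran between -0.13 and -0.06.

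The promoter windows of the TSA-raised receptors and ligands are shown because these genes rose together under a histone deacetylase inhibitor. RefSeq promoter windows of build GRCm38.p6, from 250 bases before to 50 bases after a start, were found for 7 of the 10 genes (8 windows). The targets Hes1, Hey1 and Heyl had no window. Each is given 5′ to 3′ on the strand of the gene, with capitals for the GC box GGGCGG, the core bound by SP1-family factors, and for CACGCG, a site bound by Hes and Hey repressors, on either strand.
Notch2, chr3:98013288-98013587 (+ strand): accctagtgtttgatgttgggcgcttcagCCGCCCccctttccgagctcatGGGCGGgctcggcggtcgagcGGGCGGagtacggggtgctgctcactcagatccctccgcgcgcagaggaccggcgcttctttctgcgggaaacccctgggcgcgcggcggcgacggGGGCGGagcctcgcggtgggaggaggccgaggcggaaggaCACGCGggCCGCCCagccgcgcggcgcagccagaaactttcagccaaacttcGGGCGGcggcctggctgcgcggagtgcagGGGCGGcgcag
Notch3, chr17:32166841-32167140 (- strand): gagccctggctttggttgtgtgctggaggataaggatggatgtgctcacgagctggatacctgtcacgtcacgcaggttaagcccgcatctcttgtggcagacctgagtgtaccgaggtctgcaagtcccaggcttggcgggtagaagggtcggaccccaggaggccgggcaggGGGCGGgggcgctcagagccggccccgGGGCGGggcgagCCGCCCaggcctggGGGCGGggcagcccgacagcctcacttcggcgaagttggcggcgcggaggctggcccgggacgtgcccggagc
Jag1, chr2:137116471-137116770 (- strand): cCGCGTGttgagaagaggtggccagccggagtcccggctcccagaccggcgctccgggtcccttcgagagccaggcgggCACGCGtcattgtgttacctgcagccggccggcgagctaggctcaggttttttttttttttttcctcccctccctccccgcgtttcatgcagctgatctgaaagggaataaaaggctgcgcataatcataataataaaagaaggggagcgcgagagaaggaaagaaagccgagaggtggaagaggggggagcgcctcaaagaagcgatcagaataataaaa
Jag2, chr12:112929446-112929745 (- strand): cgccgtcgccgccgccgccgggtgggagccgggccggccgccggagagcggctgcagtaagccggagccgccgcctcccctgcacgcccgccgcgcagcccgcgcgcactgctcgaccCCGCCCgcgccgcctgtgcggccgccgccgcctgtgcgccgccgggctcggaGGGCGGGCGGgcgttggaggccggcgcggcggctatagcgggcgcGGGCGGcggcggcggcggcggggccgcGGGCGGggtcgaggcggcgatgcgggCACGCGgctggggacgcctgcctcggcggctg

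Notch2 had 7 GC boxes, Jag2 had 5 and Notch3 had 4 in these windows, and Jag1 had none but 2 copies of CACGCG. Some neighbouring GC boxes in Jag2 overlap by a few letters. GC boxes were in 4 of the 8 windows, those of Notch1, Notch2, Notch3 and Jag2, and 35.7% of all 32851 windows hold 1 or more. Notch1, with 5 copies, had no call. CACGCG was found in 4 of the 8 windows, those of Notch2, Jag1, Jag2 and 1 of Dll1, and in 9.27% of all windows. The RBPJ core TGGGAA, on either strand, was in 0 of the 8 windows and in 25.6% of all. These 8 windows belong to receptors and ligands, so the count says nothing of the targets Hes1, Hey1 and Heyl. A match is a string of letters and not a measured binding site.

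Hey1, a target gene whose product represses transcription as a partner of Hes proteins, showed the largest TSA difference of the 19. Hey1 1415999_at gave 8.95, 8.92 and 9.12 with TSA, against 7.75, 7.83 and 7.79 with DMSO. The TSA arrays were above all 12 other arrays, and the difference from DMSO was 1.21 ± 0.09 (SE, n = 3 per group), or 2.31-fold, with an adjusted p of 6.8e-09. The LY294002 arrays gave 7.50, 7.53 and 7.64 and lay below all DMSO arrays, and the SB202190 arrays gave 7.54, 7.74 and 7.47 and lay below them too. Neither difference passed, with -0.23 (adjusted p = 0.111) for LY294002 and -0.20 (adjusted p = 0.339) for SB202190.

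Hes1, the target gene most often used as a readout of Notch activity, was lower with SB202190. Hes1 1418102_at gave 7.88, 7.91 and 8.41 with SB202190, against 8.59, 8.54 and 8.59 with DMSO. All SB202190 arrays lay below all DMSO arrays, with replicate 3 nearest to them, and the difference was -0.50 ± 0.12 (SE, n = 3 per group), or 1.42-fold lower, with an adjusted p of 0.0327. The call held with the replicate block (0.0105) and without SB202190 replicate 3 (0.0018), both adjusted p. It was lost without DMSO replicate 1, 2 or 3 (adjusted p of 0.0575, 0.0892 and 0.109), without SB202190 replicate 1 or 2 (0.193 and 0.175), in a fit of the 6 arrays alone (0.127) and with median centring (0.0570). Over the 14 alternatives the adjusted p ran between 0.0018 and 0.193, and leaving out 1 array moved the difference between -0.67 and -0.41.

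With TSA, Hes1 did not follow Hey1 past the threshold. Hes1 gave 8.92, 8.81 and 8.68 with TSA and 8.86, 8.76 and 8.73 with LY294002, all above the DMSO arrays. The differences were 0.23 with a 95% interval of -0.02 to 0.49 (adjusted p = 0.117) and 0.21 with an interval of -0.05 to 0.47 (adjusted p = 0.282). UO126 gave 8.49, 8.35 and 8.50, a difference of -0.12 (adjusted p = 0.888).

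Heyl, the third hairy-related target here, had no call on any of its 3 probe sets. Its TSA differences were -0.01, -0.21 (adjusted p = 0.0893) and -0.02, and the means of 1438886_at were 7.07 ± 0.09 with TSA and 7.09 ± 0.14 with DMSO (SD, n = 3 each).

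Direct comparisons of the inhibitors were made for all 6 pairs, in the fit that does not use the replicate numbers. Neither the replicate block nor leaving out arrays was tried for these pairs. LY294002 against SB202190 gave 1 call, Hes1, higher by 0.71 ± 0.12 with LY294002 (adjusted p = 0.00163), where 3.06% of all tested probe sets were higher and 1.54% lower. LY294002 against UO126 gave 1 call, Hey1, lower by 0.32 with LY294002 (adjusted p = 0.0367), where 1.65% of all tested were lower and 3.99% higher. UO126 against SB202190 gave 0 calls by limma, with 2 higher and 0 lower at an unadjusted p under 0.05 and 2.68% higher and 2.53% lower among all tested.

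More calls came from the comparisons with TSA. Against TSA, LY294002 was lower on 5 probe sets, both of Notch3, both of Jag2 and that of Hey1, with 19.7% of all tested called lower and 20.3% higher. UO126 was lower than TSA on 8 (22.5% lower among all tested), the same 5 and 1 each of Notch1 (-0.33, adjusted p = 0.00766), Notch2 (-0.60) and Hes1 (-0.36, adjusted p = 0.0194), and higher on Notch4 1436901_at (0.35, adjusted p = 0.0288; 20.1% higher among all tested). SB202190 was lower than TSA on 8 (21.0% lower and 17.3% higher among all tested), the same 5 and 1 each of Notch2, Jag1 (-0.58, adjusted p = 0.0107) and Hes1 (-0.74, adjusted p = 6.35e-05). Each inhibitor's comparison with DMSO uses the same DMSO arrays.

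The rest of the pathway was described with 69 further genes in 8 role lists, of which 62 were tested. TSA raised 23 and lowered 16, or 37.1% and 25.8% of them, beside 23.0% and 20.6% of all tested probe sets, and 23 did not pass; the median difference was 0.02. Of the ligands and ligand-like proteins, 3 of 5 rose and 1 fell. Dner, a transmembrane protein with repeats like those of Delta and Notch, averaged 8.64 with TSA and 6.34 with DMSO, a difference of 2.30 ± 0.11, or 4.94-fold (adjusted p = 4.23e-11). Dlk1 rose by 0.34 and its relative Dlk2 fell by 0.64.

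Receptor processing moved both ways with TSA, with 4 of 8 genes higher and 3 lower. Adam17, a protease that sheds membrane proteins including Notch, averaged 10.67 with TSA and 9.72 with DMSO, a difference of 0.96 ± 0.09, whereas Ncstn, the gamma-secretase subunit nicastrin, averaged 8.59 with TSA and 9.65 with DMSO, a difference of -1.06 ± 0.10 or 2.09-fold lower (adjusted p = 1.85e-07). Aph1b, another gamma-secretase subunit, rose by 0.70. Of the 6 genes for glycosylation of the receptor, Gxylt1 rose by 0.50, and Poglut1 and Lfng fell by 0.43 and 0.27.

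Ligand endocytosis genes were higher with TSA in 2 of 4 cases, Neurl1a by 0.97 and Mib2 by 0.69, both ubiquitin ligases that act on ligands. For receptor endocytosis and turnover, 5 of 11 rose and 3 fell. The largest increases were those of Dtx1, a Deltex ubiquitin ligase (1.12), Numb, an endocytic inhibitor of Notch (0.88), and Fbxw7, which targets the intracellular domain for degradation (0.62).

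With TSA, genes of the nuclear complex were lower where they passed. None of the 8 genes of the nuclear complex and coactivators rose by limma, and 4 fell, among them the acetyltransferases Crebbp (-0.49) and Kat2a (-0.44) and the adaptor Snw1 (-0.44), each with a standard error of 0.10 to 0.12. All 8 differences were negative. Rbpj itself averaged 10.84 with TSA and 11.07 with DMSO, a difference of -0.23 that did not pass by limma (adjusted p = 0.127). With the replicate block, where pairing is unclear for TSA, it passed (adjusted p = 0.0283). Of 12 corepressors, 7 rose and 2 fell, with Tle4, a Groucho protein, at 1.05, Bend6 at 0.87 and the corepressor Ctbp1 at -0.78. Of 8 other hairy-related and feedback targets, Hes6 rose by 0.31 and Hes3 fell by 0.35. Hes3 averaged 6.17 with TSA and 6.52 with DMSO, both under the array medians.

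**Figure D3:**
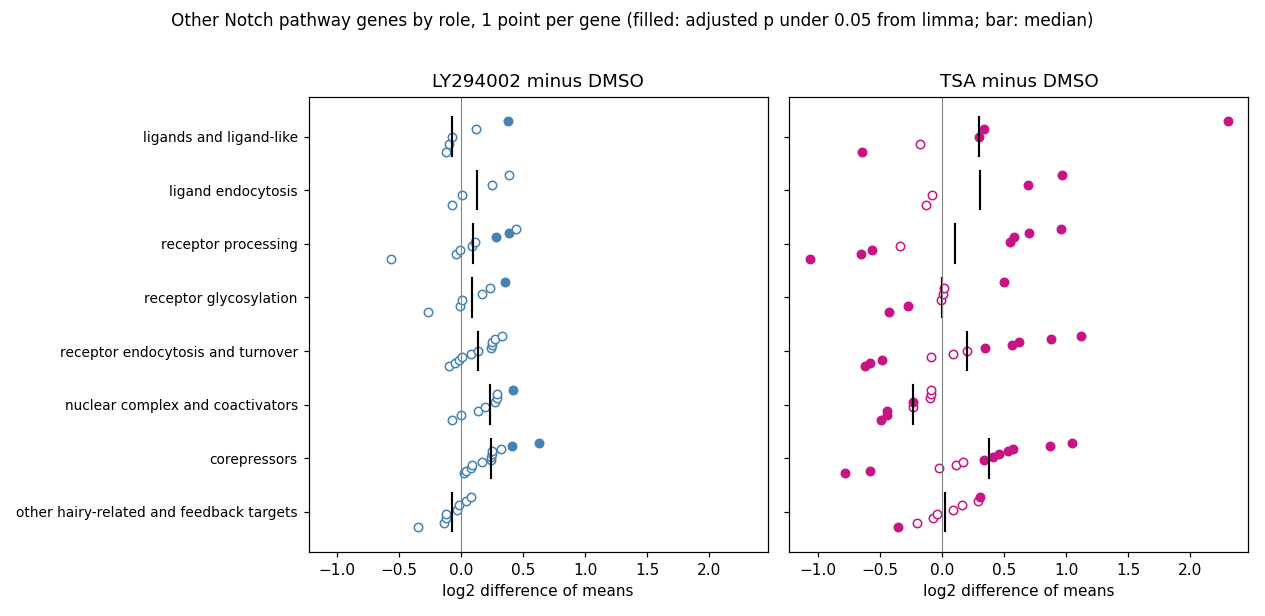
Differences from DMSO (log2, inhibitor minus DMSO) of the 62 other Notch pathway genes tested, 1 point per gene, by role list, for LY294002 and for TSA; filled points mark an adjusted p under 0.05 and vertical bars the median of a list. With TSA the 8 genes of the nuclear complex all lie under 0, while 23 of the 62 genes are called higher and 16 lower; LY294002 has 7 called, all higher.

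LY294002 raised 7 of the 62 other pathway genes (11.3%, beside 6.83% of all tested probe sets) and lowered 0 by limma (beside 1.78%), with 21 higher and 3 lower at an unadjusted p under 0.05, and 19 higher and 2 lower with the replicate block. The 7 were Dlk1 (0.38, adjusted p = 0.00959), Adam17 (0.39, 0.0131), Furin, the protease that first cleaves the receptor (0.28, 0.0320), Pofut1, which adds O-fucose to it (0.35, 0.0497), Ep300 (0.42, 0.0178), Kdm5a, a histone demethylase (0.63, 0.0144), and Tle4 (0.41, 0.0379). This count depended on single arrays. Leaving out DMSO array 1, 2 or 3 gave 19, 3 and 1 calls, and leaving out LY294002 array 1 or 2 gave 1 and 4. In the lists with no call, the largest differences were Mib1 (0.39, adjusted p = 0.122), Numb (0.33, 0.0524) and Bhlhe40 (-0.35, 0.0779). With the replicate block all 3 passed, at an adjusted p of 0.0338, 0.0134 and 0.0101.

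UO126 and SB202190 gave 0 calls in either direction among the 62 by limma. At an unadjusted p under 0.05, UO126 had 3 higher and 2 lower and SB202190 had 13 higher and 0 lower. With the replicate block the calls were 2 higher and 2 lower for UO126 and 4 higher and 0 lower for SB202190. These unadjusted and block counts too have no share over all tested probe sets beside them. The largest UO126 difference of each list was that of Bhlhe40 (-0.44, adjusted p = 0.0731), Tle4 (0.37, 0.151), Lfng (-0.36, 0.0779), Furin (0.29, 0.0680), Rbpj (-0.24), Aak1 (0.20), Dner (0.16) and Neurl1b (-0.13). Bhlhe40 (0.00513), Tle4 (0.0239), Lfng (0.0401) and Furin (0.0180) passed with the replicate block, where the values are adjusted p. For SB202190 they were Bend6 (0.43, adjusted p = 0.0723), Kat2b (0.38), Mib1 (0.34), Dtx4 (0.33), Adam10 (0.31), Hes6 (0.28), Pofut1 (0.27) and Dll4 (-0.19), of which Bend6 (0.0126), Kat2b (0.0249) and Dtx4 (0.0290) passed with the block.

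Markers of cell types moved with TSA as well. Beside the TSA marker counts stand 23.0% of all tested probe sets called higher and 20.6% lower. The 2 of 8 mural and 2 of 10 fibroblast markers called higher lie near the first share. The counts lower in these 2 lists lie above the second share, which is a description and not a test. All 16 chondrocyte markers fell, with a median difference of -1.20, and their summed linear signal was 39200 to 52800 on TSA arrays and 80800 to 86100 on DMSO arrays. Among these, Acan, the aggrecan core protein, fell by 2.10 and Sox9, the chondrocyte transcription factor, by 1.14. In bulk RNA, fewer cells of a type cannot be told apart from less RNA per cell. Of 8 mural cell markers, 2 rose (Mcam by 1.67 and Rgs5 by 0.48) and 4 fell, Cspg4 by 1.47, Pdgfrb by 1.33, Acta2 by 0.72 and Des by 0.46, and their sum was 6040 to 7090 with TSA and 9190 to 10100 with DMSO.

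The endothelial markers Pecam1, Cdh5 and Tie1 lay under a signal of 50 in every treatment. Of the 7 tested, 1 rose (Kdr by 0.30) and 1 fell (Eng by 0.62). The sum of the 10 endothelial markers was 1900 to 1970 with TSA and 2180 to 2360 with DMSO. Eng has the highest signal of the list and weighs most in this sum. Of 8 skeletal muscle markers tested 6 fell, and the 10 measured summed to 1010 to 1100 with TSA and 1990 to 4620 with DMSO. Of 6 macrophage and leukocyte markers tested, 1 rose and 4 fell, and Ptprc and Itgam lay under 50 in every treatment. The sums were 1800 to 1910 with TSA and 1620 to 1990 with DMSO. The marker that rose, Cd68, averaged 9.76 with TSA and 7.54 with DMSO, and weighs most in the TSA sum. The other 5 tested had negative differences, so the similar sums do not show unchanged markers. Of 10 fibroblast and perichondrium markers 2 rose and 6 fell, with sums of 15400 to 16500 with TSA and 25000 to 30600 with DMSO. All 4 osteoblast markers measured fell with TSA (sums of 9900 to 13500 with TSA and 14600 to 18200 with DMSO). Of 4 hypertrophic markers 2 fell, Mmp13 and Pth1r, with sums of 2460 to 5640 with TSA and 8010 to 9960 with DMSO. Mmp13 averaged 10.01 with TSA and 12.58 with DMSO, and weighs most in the DMSO sum. Col10a1 went the other way, at 10.92 with TSA and 10.37 with DMSO, but did not pass (adjusted p = 0.354). Ihh, lower with TSA, did not pass either (adjusted p = 0.0686). With the block, where pairing is unclear for TSA, Col10a1 was higher (adjusted p = 0.000338) and Ihh lower (adjusted p = 0.0021).

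Markers differed with the other inhibitors too. Of the 16 chondrocyte markers, LY294002 raised 5 and UO126 raised 4, where 6.83% and 1.14% of all tested probe sets were higher. All 16 differences were positive with each, and with the block 8 were higher with LY294002 and 8 with UO126. The sums were 105000 to 108000 with LY294002, 104000 to 121000 with UO126 and 80800 to 86100 with DMSO. SB202190 gave 0 chondrocyte calls by limma, with sums of 71600 to 83500. At an unadjusted p under 0.05, 0 were higher and 4 lower, and with the block 0 were higher and 3 lower. All 4 osteoblast markers had negative differences with SB202190 (median -0.49), with 0 calls by limma, 4 lower at an unadjusted p under 0.05 and 3 lower with the block, and their sums were 11700 to 13400 with SB202190 and 14600 to 18200 with DMSO. The part of these changes in the Notch results was not tested.

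The genes whose levels over the 15 arrays were most like those of a member were found by Pearson's r among all genes tested, as a description, since arrays of a treatment share their condition. For Hey1 they were Tspan13 (0.987), Hspb1 (0.986) and Efhd1 (0.984), which lay at 10.94, 13.51 and 8.06 with TSA and at 9.72, 10.64 and 6.22 with DMSO. Over the 12 arrays without TSA the values were 0.813, 0.786 and 0.758. For Hes1 they were Spsb1 (0.879), Inhbb (0.879) and Wif1 (0.874), and without TSA 0.877, 0.898 and 0.886. Wif1, a secreted Wnt antagonist, averaged 6.55 with SB202190 and 8.16 with DMSO.

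For Jag1 the nearest were Htatsf1, Cnot7 and Elp3, each at 0.926, and for Notch1 they were Grpel2 (0.920), Mms19 (0.920) and Pign (0.915). For Heyl they were Hnf4aos (0.895), Saxo2 (0.695) and Atg9b (0.684), whose treatment means, like those of Heyl, lay close together.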

How the data were processed

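Total RNA of 15 cultures was hybridized to Affymetrix mouse arrays, and the authors deposited log2 signals that they had normalized across arrays (array medians of 6.90 to 7.00). The study's methods name GC-RMA for this deposited table, while RMA is named where its gene set analysis is described, and no genome build is given in the sources used here. Such signals carry no counts, so the number of arrays limits the precision. Groups and replicate numbers came from the sample labels. Of 45101 probe sets, 64 controls were left out.

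A linear model with a mean for each treatment was fitted over the 15 arrays (10 residual degrees of freedom) in limma 3.58.1 (R 4.3.3), with empirical Bayes moderation. Probe sets with a mean of at least log2 of 50 in either group were tested, and p values were adjusted by Benjamini-Hochberg over all of them. The script recovered most seeded changes of 1 log2 unit when tested on simulated data. The simulated noise was independent between arrays, without an effect shared by replicate number. Recovery was required only for changes of that size, so it does not bear on smaller differences. An exact permutation test of 3 against 3 arrays cannot go below 0.1. Each gene outside the 10 was read from its probe set of highest mean; 63 of 69 pathway genes were measured. Members, lists and tests were chosen with earlier results of these data known. All members are named. Of each other pathway list, up to 3 called genes of largest difference per comparison are named, or 1 where none was called. The 3 genes most like each of 5 members are named too. Cell type markers were named by choice and not by this rule.

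Deviations of same-numbered arrays from their treatment means correlated at 0.748, 0.367 and 0.590 for LY294002 and DMSO, and at 0.695, 0.509 and 0.295 for UO126 and DMSO. For SB202190 and DMSO they correlated at 0.224, 0.278 and 0.302. The numbers were taken to pair the arrays of these inhibitors with DMSO. For TSA and DMSO the correlations were 0.238, 0.451 and 0.0288. A fixed cut on the lowest correlation, set without a test, left TSA unpaired. The other TSA values are no lower than the lowest of SB202190, so pairing is unclear for TSA. The alternatives were the replicate block, the 6 arrays of each comparison alone, other filters, quantile normalization, median centring, another prior, a fit without the TSA arrays, the mean of a gene's probe sets and leaving out each array. All of these alternatives were run only for the comparisons with DMSO. Promoter windows came from RefSeq.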

Additional observations from a re-analysis of the deposited data

How the results depend on the processing

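Of 1026 values of the 10 genes under the alternatives, 12 lost and 7 gained a call and none with a call reversed. All 58 changes of sign concerned differences without a call, of at most 0.24 as reported. With the replicate block, LY294002 raised 1 probe set in place of 0, other pathway genes called were 21 in place of 7 for LY294002, 4 in place of 0 for UO126 and 4 in place of 0 for SB202190, and TSA lowered 2 probe sets in place of 0. In that block fit, where pairing by number is unclear for TSA, Notch4 1436901_at and Heyl 1419303_at were the lower ones (adjusted p of 0.0220 and 0.0453). Notch1 1418634_at was higher there (adjusted p of 0.0300). With the 6 arrays alone LY294002 gave 0 other pathway genes and SB202190 lowered 0 probe sets of the 10 genes; with median centring the counts were 12 and 0. Quantile normalization gave 1 other pathway gene for UO126 and 2 for SB202190, and averaging a gene's probe sets gave 2 and 1. Leaving out 1 array, LY294002 raised 0 to 1 probe sets of the 10 genes and called 1 to 19 other pathway genes, UO126 called 0 to 1, and SB202190 lowered 0 to 1 and called 0 to 2. TSA raised 5 to 8 and lowered 0 to 1 probe sets, and called 35 to 37 other pathway genes, against 39 with all arrays. For Jag1 1434070_at with LY294002, leaving out 1 array gave differences of 0.24 to 0.57 and adjusted p of 0.0494 (without LY294002 replicate 3) to 0.512 (without LY294002 replicate 1). Without DMSO replicate 1, Notch4 1436901_at was lower with TSA (0.0356), and without TSA replicate 2, Notch1 1418634_at was higher (0.0436). The cause of these changes was not tested. With 3 arrays a group, differences near the median standard error of 0.10 were not detectable.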
